A study of Meriones unguiculatus and Mus musculus with 2 samples.

Results

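The PDGF and HGF ligands and receptors comprised 7 genes, found by symbol in a table of 41214 mouse genes: the PDGF ligand genes Pdgfa, Pdgfb and Pdgfc, the PDGF receptor genes Pdgfra and Pdgfrb, the ligand gene Hgf and its receptor gene Met. The table reports RNA sequencing of 1 skin wound library from the Mongolian gerbil (Meriones unguiculatus) and 1 from the ICR mouse, an outbred laboratory stock, both taken 3 days after wounding from tissue labelled dermis. The labels give no genotype, age or further treatment for either animal group, nor the number of animals behind a library. With 1 library per species nothing below has a replicate check or a p-value, each difference describes a pair of libraries, and species and library cannot be told apart. Values are FPKM, fragment counts normalised for transcript length and sequencing total; depth is unknown. Differences are the gerbil value of log2(FPKM + 1) less the ICR value, which understates the change of low genes.

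Platelet-derived growth factors are secreted dimers that platelets, macrophages, keratinocytes and endothelial cells release into a wound, and their receptor tyrosine kinases sit mainly on fibroblasts, pericytes and other mesenchymal cells. Receptor activation makes these cells migrate and divide. Hepatocyte growth factor is made by mesenchymal cells as an inactive precursor, and after cleavage it binds the receptor tyrosine kinase MET on epithelial cells, where it promotes migration and survival. Both systems therefore pass signals between the epithelial or blood-derived and the mesenchymal compartments of a healing wound.

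Of the 7 genes, 6 had a value in both libraries. Among these 6 the order of FPKM levels was the same in gerbil and in ICR: Pdgfra highest, then Met, Pdgfrb, Pdgfc, Pdgfb and Hgf. The highest level was 7.70 times the lowest in gerbil and 35.3 times the lowest in ICR. None of the 6 reached a 4-fold difference in either direction. Across all 20089 measured gene symbols (both values present, and 1 FPKM or more in either library), 25.9% were higher in gerbil by 4-fold or more and 5.56% were lower by as much. Among the 11152 measured protein-coding symbols whose gerbil match had an expectation value of 0, as those of the 6 genes did, the shares were 6.10% and 5.99%, so 0 of 6 is near that background. By any amount, 4 of the 6 were lower in gerbil, against 42.7% of those symbols. At 2-fold, 1 of the 6 was lower in gerbil, Pdgfb, and 0 were higher, against 16.4% and 21.6% of those protein-coding symbols. Hgf entered the measured set only through its gerbil value. The 6 had a median log2 difference of -0.21, between -1.16 for Pdgfb and 0.70 for Hgf, and the protein-coding symbols with an expectation value of 0 had a median of 0.21 with quartiles of -0.56 and 0.88.

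**Figure D1:**
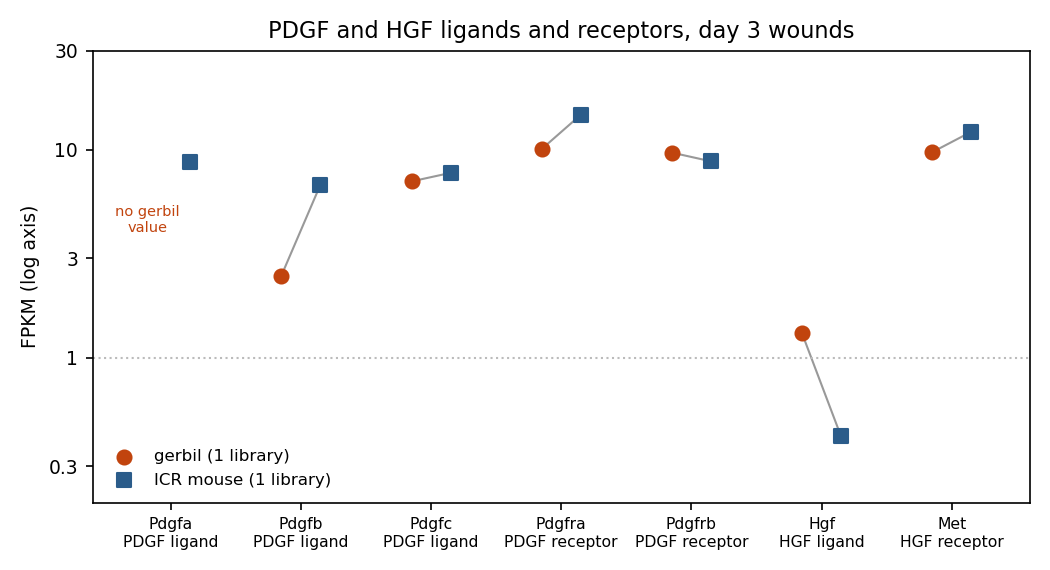
FPKM on a log axis for each gene, with 1 point per library (gerbil as circles, ICR as squares, a grey line joining the 2 values of a gene) and a dotted line at 1 FPKM. Hgf is lowest in both libraries and lies under the line in ICR, Pdgfb and Hgf have the widest gaps, and Pdgfa has an ICR value only.

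The gerbil values depend on how gerbil sequences were paired with mouse genes. The header places them after an assembly and gives an expectation value for each, with a largest value of 1e-05 in the table; an expectation value of 0 is the strongest match, and 62.6% of gerbil values had it. Each of the 6 gerbil values also stood on other rows: 3 for Pdgfrb, 5 for Pdgfra, 6 for Met, 7 for Pdgfc, 19 for Pdgfb and 29 for Hgf. A search of the coding sequences of the 7 genes against all other mouse coding sequences and pseudogene transcripts gave 36 pairs of a gene and a related gene and 0 related pseudogenes. None of the 69 other rows belonged to such a related gene. The rows with the Pdgfrb value, for example, were Coa7, Havcr2 and Vps18. Not all of the other rows were protein-coding genes: of the 7 with the Pdgfc value, 3 were. Non-coding genes other than pseudogenes, and untranslated sequence of coding genes, were outside the search. Gerbil values have 2 decimals, and of the 11992 gerbil values from 1 to under 15 FPKM only 98 stood on 1 row, with a median of 13 rows for a value. Some relatives by sequence had other levels. Csf1r, the macrophage colony-stimulating factor receptor gene, was at 111 FPKM in gerbil and 77.6 in ICR, and Kit, the stem cell factor receptor gene, was at 1.09 in gerbil and 0.528 in ICR. Others lay closer. Pdgfra and Pdgfrb, 74.1% identical over 455 aligned bases, were at 10.09 and 9.70 FPKM in gerbil, and Fgfr2, related to both, was at 8.59 in gerbil. Whether gerbil sequences were exchanged between relatives was not tested. All 7 symbols are annotated in the gerbil genome by RefSeq (assembly Bangor_MerUng_6.1).

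Pdgfa (ENSMUSG00000025856, chromosome 5, 138976014 to 138997370 on GRCm38, minus strand) encodes the A chain, whose homodimer binds the alpha receptor. It was at 8.77 FPKM in ICR and had no gerbil value, which is not a measurement of 0. Of 4684 protein-coding genes at 5 to 20 FPKM in ICR, 295 (6.30%) had no gerbil value, and of the 569 among them with a coding sequence of 500 to 800 bases, 61 (10.7%) had none. The longest Pdgfa coding sequence has 633 bases. These ranges were chosen after the Pdgfa value was seen.

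Pdgfb (ENSMUSG00000000489, chromosome 15, 79995900 to 80014808, minus strand) encodes the B chain, which binds both receptors and recruits pericytes to new vessels. It was at 2.48 FPKM in gerbil and 6.80 FPKM in ICR, so the gerbil level was 36.5% of the ICR level. This was the largest difference among the 6 genes on the FPKM + 1 scale, 2.24-fold lower in gerbil (log2 difference -1.16), and 61.4% of measured protein-coding symbols had a smaller difference in size. In sequence, Pdgfb was the only mouse gene found related to Pdgfa. Their coding sequences share a stretch of 182 bases without gaps, 125 of them identical (68.7%), in the part that encodes the conserved growth factor domain. The longest identical run is 12 bases. The stretch is shown because the ligand with no gerbil value and the ligand with the largest difference are each other's closest mouse relatives. It runs from base 343 to 524 of the Pdgfa coding sequence and from base 346 to 527 of that of Pdgfb, counted from the first base of the start codon, in the GENCODE M21 transcripts, 5′ to 3′, with bases identical in both in capitals.
Pdgfa: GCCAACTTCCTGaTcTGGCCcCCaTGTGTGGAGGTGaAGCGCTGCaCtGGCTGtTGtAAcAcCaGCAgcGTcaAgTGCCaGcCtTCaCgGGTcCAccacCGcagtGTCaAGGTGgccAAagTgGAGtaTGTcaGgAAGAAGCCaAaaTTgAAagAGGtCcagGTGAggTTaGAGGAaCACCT
Pdgfb: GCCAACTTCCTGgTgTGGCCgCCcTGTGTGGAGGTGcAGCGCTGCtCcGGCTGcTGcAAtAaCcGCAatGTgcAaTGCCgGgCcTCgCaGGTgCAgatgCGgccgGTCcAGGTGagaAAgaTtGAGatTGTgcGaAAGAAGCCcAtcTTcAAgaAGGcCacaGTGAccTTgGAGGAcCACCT
The first 36 bases of the stretch hold 4 differing bases and the later 146 hold 53.

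Pdgfc (ENSMUSG00000028019, chromosome 3, 81036416 to 81214040, plus strand) encodes a ligand that is activated outside the cell by removal of its CUB domain and then binds the alpha receptor. It was nearly level, at 7.05 FPKM in gerbil and 7.75 FPKM in ICR (log2 difference -0.12). In gerbil it was therefore above Pdgfb by a wide margin, while in ICR the 3 ligand genes lay close together, between 6.80 and 8.77 FPKM. Pdgfb and Pdgfc together summed to 9.53 FPKM in gerbil and 14.5 FPKM in ICR. Pdgfd, the remaining ligand gene of the family and a ligand of the beta receptor, was lower than Pdgfb and Pdgfc in both libraries, at 2.11 FPKM in gerbil and 2.83 FPKM in ICR.

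Pdgfra (ENSMUSG00000029231, chromosome 5, 75152291 to 75198204, plus strand), the receptor gene typical of fibroblasts, was at 10.09 FPKM in gerbil and 14.7 FPKM in ICR, a log2 difference of -0.51. Pdgfrb (ENSMUSG00000024620, chromosome 18, 61045150 to 61085061, plus strand), the receptor gene typical of pericytes and activated fibroblasts, was at 9.70 FPKM in gerbil and 8.81 FPKM in ICR. Its log2 difference of 0.13 became -0.12 and -0.34 under the scalings described below, so no direction is given for it. The balance of the receptors differed between the libraries: Pdgfrb was 0.961 times Pdgfra in gerbil and 0.597 times Pdgfra in ICR. Such a ratio of FPKM values inside a library does not change with the scaling between libraries. It does depend on the transcript length used for each gene, which is not stated for gerbil. Pdgfrl, the gene of a receptor-like protein without a kinase, was at 13.3 FPKM in gerbil and 9.997 FPKM in ICR (log2 difference 0.38, and -0.10 under the trimmed mean scaling).

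Markers of cells that carry or release these proteins were read beside them. In bulk tissue, fewer cells of a type and less RNA per cell cannot be told apart. Of the measured protein-coding symbols with an expectation value of 0, 42.7% were lower in gerbil by any amount, with a median log2 difference of 0.21. Marker counts and medians here and below stand beside that background, and the fibroblast count was near it. All 13 fibroblast markers were measured, 8 higher and 5 lower in gerbil, with a median log2 difference of 0.47 (-0.05 under the trimmed mean scaling) and a summed level of 2345 FPKM in gerbil (1635 under that scaling) and 2062 FPKM in ICR. The type I collagen chains, the most abundant of them on average over both libraries, differed in direction: Col1a1 was at 203 FPKM in gerbil and 567 in ICR, and Col1a2 at 1079 in gerbil and 502 in ICR. Of 11 pericyte and mural cell markers, 10 were higher in gerbil and 1 lower, with a median of 1.01 (0.63 under the trimmed mean scaling) and a sum of 385 FPKM in gerbil and 127 FPKM in ICR. Of these, 3 (Cspg4, Abcc9 and Myh11) were under 1 FPKM in ICR and entered only through their gerbil value, so the count and the median favour gerbil; the median of the other 8 was 0.85. These sums rest mostly on Acta2, Tagln and Des. Acta2 was at 169 FPKM in gerbil, a value on 10 rows, and 42.5 in ICR. Tagln, named after its values were seen, was at 74.1 in gerbil and 15.9 in ICR, and Des at 66.3 in gerbil and 40.5 in ICR. None of the fibroblast or pericyte markers was listed at 0. The part of these markers in the receptor levels was not tested.

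For the ligands, all 4 measured platelet markers of 8 listed were above 0, with a sum of 585 FPKM in gerbil and 288 FPKM in ICR. Nearly all of it was Pf4 (517 FPKM in gerbil and 258 in ICR) and Ppbp (65.0 in gerbil and 16.2 in ICR), chemokine genes of platelets. The other platelet markers went the other way, Itga2b at 1.39 FPKM in gerbil and 6.85 in ICR and Gp1bb at 1.22 in gerbil and 7.41 in ICR, and the median difference of the 4 was -0.36. The 7 measured endothelial markers of 9 summed to 39.4 FPKM in gerbil and 48.8 FPKM in ICR, with a median difference of 0.41; Pecam1 was at 21.9 FPKM in gerbil and 10.7 in ICR, and Egfl7 at 2.26 in gerbil and 26.4 in ICR. Of 9 monocyte and macrophage markers 5 were measured and 3 others had no gerbil value; 2 of the 5 were higher and 3 lower in gerbil, with a median difference of -0.74. Cd14 was at 784 FPKM in gerbil and 1332 in ICR, and Ccr2 at 3.34 in gerbil and 43.2 in ICR, while Itgam was at 797 in gerbil, a value on 14 rows, and 71.5 in ICR. The 5 measured summed to 1724 FPKM in gerbil and 1573 FPKM in ICR, and without Itgam to 928 FPKM in gerbil and 1502 FPKM in ICR. The 3 without a gerbil value, named after their values were seen, are outside these sums. In ICR, Lyz2 was at 1717 FPKM, Cd68 at 202 and Fcgr1 at 27.4. The 4 measured neutrophil markers of 7 summed to 299 FPKM in gerbil and 203 FPKM in ICR. Their median difference was 0.26 (-0.25 under the trimmed mean scaling). Among them were Cxcr2 (64.0 in gerbil and 67.0 in ICR) and Fpr1 (141 in gerbil and 29.5 in ICR). The other 3, named after their values were seen, had no gerbil value and are outside these sums. In ICR, S100a9 was at 4550 FPKM, S100a8 at 3242 and Retnlg at 157. The sums therefore do not compare neutrophil markers as a whole. Sums and medians of these lists thus did not give a single direction, and the part of these cells in the Pdgfb level was not tested.

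Hgf (ENSMUSG00000028864, chromosome 5, 16553550 to 16619439, plus strand) was the lowest of the genes in both libraries. It was at 1.31 FPKM in gerbil and 0.418 FPKM in ICR, a ratio of 3.13 on the FPKM scale and a log2 difference of 0.70 on the FPKM + 1 scale. With a pseudocount of 0.1 the log2 difference was 1.44. At such levels the pseudocount sets much of the value, and the precision is limited by an unknown depth. Hgf was the one gene of the 6 that stayed above ICR under both scalings. By rank among measured symbols, Hgf was at percentile 7.09 of the gerbil values and 34.6 of the ICR values. The percentile was lower in gerbil for each of the 6. Of the 20089 measured symbols, only 11564 were at 1 FPKM or more in both libraries. Symbols ranked under Hgf in ICR were under 1 FPKM there and entered only through their gerbil value. That filter fills the low end of the ICR ranking, so these percentiles cannot give a direction.

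Met (ENSMUSG00000009376, chromosome 6, 17463800 to 17573980, plus strand), the receptor gene, was among the most abundant of the set, at 9.74 FPKM in gerbil and 12.2 FPKM in ICR (log2 difference -0.30). The receptor gene exceeded the ligand gene in both libraries, by 7.44 times in gerbil and 29.2 times in ICR. Despite the label dermis, all 9 keratinocyte markers were measured, with Krt1 and Krt5, keratins of the suprabasal and basal epidermis, at 2469 and 11792 FPKM in gerbil and 2471 and 4284 FPKM in ICR. Krt14, another basal keratin gene, was at 18470 FPKM in gerbil and listed at 0 in ICR. Of the 9, 3 were higher and 6 lower in gerbil, with a median difference of -0.10. Summed keratinocyte markers were 36006 FPKM in gerbil and 11561 FPKM in ICR, and without Krt14 they were 17536 FPKM in gerbil and 11561 FPKM in ICR; their part in the Met level was not tested. The parallel pair, Mst1 for a ligand related to HGF and Mst1r for its receptor, was also low: Mst1 was at 1.04 FPKM in gerbil and 2.27 in ICR, and Mst1r at 4.61 in gerbil and 6.67 in ICR. Hgf and Mst1 thus lay on opposite sides, the first higher and the second lower in gerbil.

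**Figure D2:**
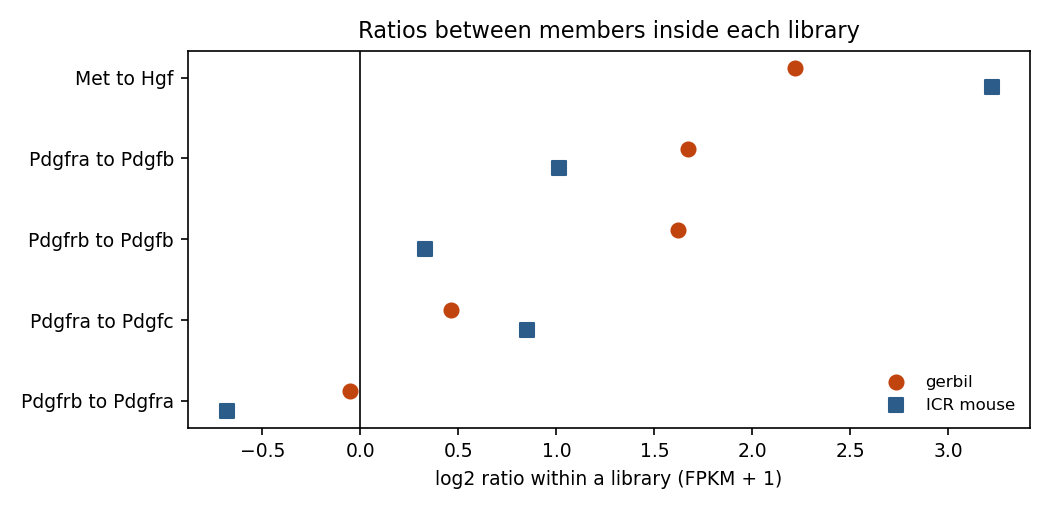
Log2 ratios between genes inside each library, from FPKM + 1, for gerbil (circles) and ICR (squares). Both PDGF receptor genes exceed Pdgfb by more in gerbil than in ICR, Met exceeds Hgf by less in gerbil, and Pdgfrb and Pdgfra are nearly level in gerbil.

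Receptor-to-ligand ratios inside a library moved in different directions. These ratios, and that of Met to Hgf, also depend on the unstated transcript lengths behind the gerbil values. Pdgfra was 4.07 times Pdgfb in gerbil and 2.17 times Pdgfb in ICR, and Pdgfrb was 3.91 times Pdgfb in gerbil and 1.30 times Pdgfb in ICR. Pdgfra was 1.43 times Pdgfc in gerbil and 1.90 times Pdgfc in ICR. The wider receptor-to-Pdgfb gap in gerbil carries the lower gerbil Pdgfb value, which both ratios share. In ICR, where Pdgfa had a value, Pdgfb was 0.774 times and Pdgfc 0.883 times Pdgfa.

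The signs of small differences depended on the scaling. The trimmed mean was taken over all 20089 measured symbols, coding and non-coding, whose median log2 difference was 0.87. The protein-coding symbols with an expectation value of 0, the class of the ligand and receptor genes compared, had a median of 0.21. No trimmed mean was computed over that class alone, so the size of its shift for these genes is uncertain. A trimmed mean of log ratios lowered gerbil by 0.52 on the log2 scale, and 13 housekeeping genes with both values lowered it by 0.28. Relative to these, Pdgfb was at -1.51 and -1.36, Pdgfra at -0.97 and -0.76, Met at -0.76 and -0.55, and Pdgfc at -0.56 and -0.36 under the trimmed mean and housekeeping scalings. Hgf was at 0.43 and 0.55. Pdgfb, Pdgfra, Met and Pdgfc were thus lower, and Hgf higher, in gerbil under the values as deposited and under both scalings, and none passed 4-fold. A common factor for all genes cannot settle the side of Hgf, which lay near 1 FPKM in gerbil and under it in ICR.

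**Figure D3:**
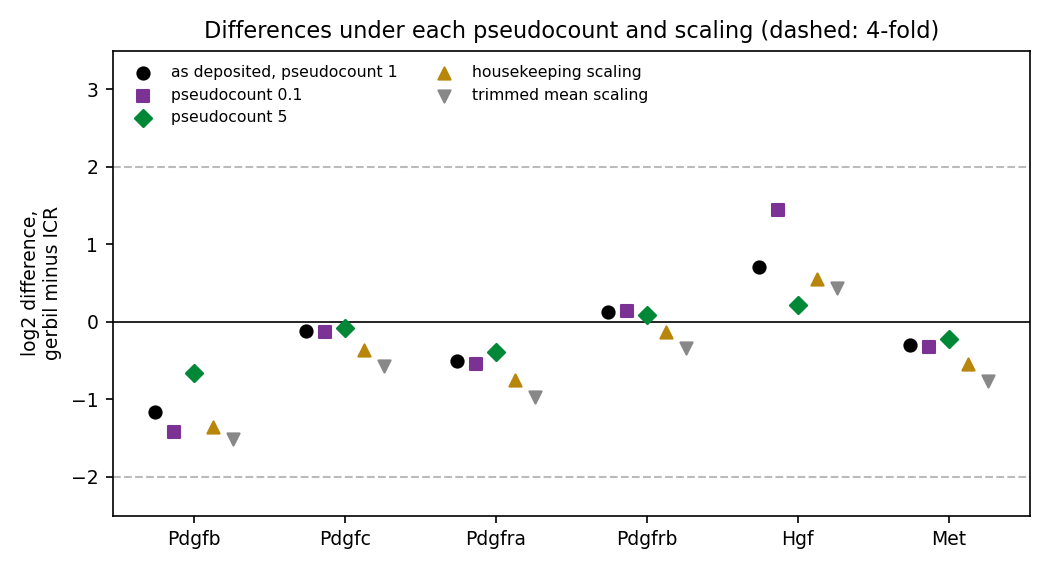
Log2 difference (gerbil minus ICR) of each gene with both values under 3 pseudocounts and 2 scalings, with dashed lines at 4-fold. Pdgfrb changes side, Hgf spreads most, up to 1.44 with a pseudocount of 0.1, and no point crosses a dashed line.

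**Figure D4:**
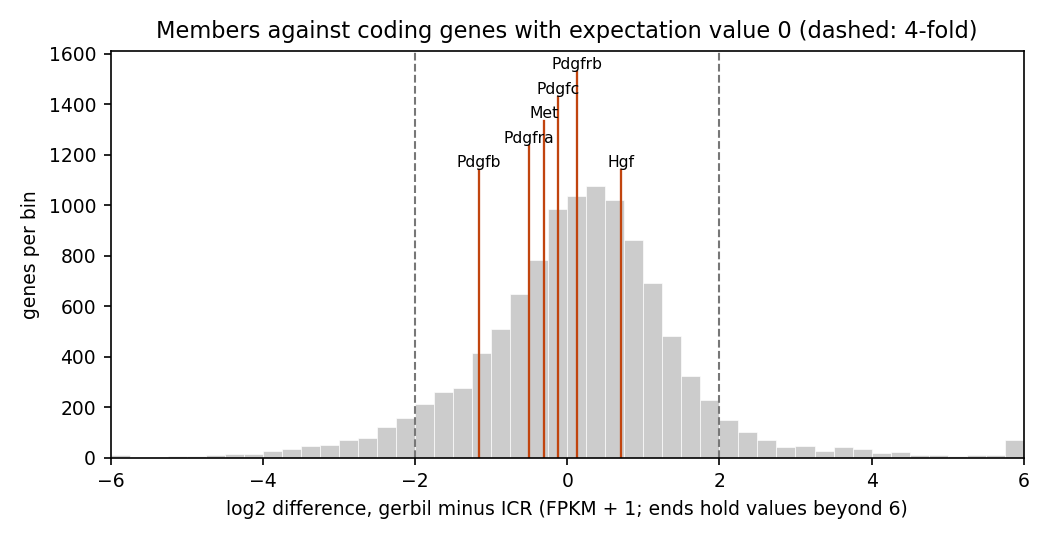
Number of protein-coding genes with an expectation value of 0 per bin of 0.25 in log2 difference (gerbil minus ICR), with the 6 genes as vertical lines and dashed lines at 4-fold. The 6 lie in the body of the distribution, with Pdgfb farthest to the left at -1.16.

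The wider pathway was read from lists of genes. Over 7 lists, 70 of 77 genes were measured and 5 had no gerbil value. At 4-fold or more, 2 were higher in gerbil and 7 lower, leaving 61, with a median log2 difference of -0.16. Of the measured protein-coding symbols with an expectation value of 0, 6.10% were higher and 5.99% lower by as much, with a median of 0.21. The lists below are short, and none of their counts was read as a departure from these shares. Of the 12 genes for processing enzymes and their inhibitors, 9 were measured and 0 passed 4-fold (4 higher, 5 lower by any amount, median -0.02). Furin, the convertase that cleaves PDGF-A and PDGF-B precursors, was at 43.0 FPKM in gerbil and 44.3 in ICR. Plau, the urokinase gene, was at 44.9 FPKM in gerbil and 69.4 in ICR, and the inhibitor gene Spint2 at 69.1 in gerbil and 79.0 in ICR. The convertase gene Pcsk6 was at 6.82 FPKM in gerbil and 13.2 in ICR, and Tmprss13, a membrane serine protease gene, at 47.0 in gerbil and 29.7 in ICR. Of proteases chosen after their values were seen, Plat, which activates PDGF-C, was at 31.3 FPKM in gerbil and 21.3 in ICR, and St14, the matriptase gene, at 23.4 in gerbil and 23.7 in ICR.

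Co-receptors and receptor partners had the lowest median among these lists, -1.11 over 10 measured genes, 3 higher and 7 lower in gerbil; at 4-fold or more, 0 were higher and 2 lower. Sdc1, the syndecan gene, was the most abundant, at 383 FPKM in gerbil and 428 in ICR. Cd44, whose variant form presents HGF to MET, was at 72.6 FPKM in gerbil and 156 in ICR, and the plexin gene Plxnb2 at 106 in gerbil and 106 in ICR. Itgb1, the beta 1 integrin gene, was at 5.18 FPKM in gerbil, a value on 14 rows, and 212 in ICR. Cav1, the caveolin gene, was 4.66-fold lower, at 21.2 FPKM in gerbil and 102 in ICR. Nrp1 had no gerbil value.

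Adaptors and effectors that receptor tyrosine kinases use had a median of -0.26 over 22 measured of 23 genes, 8 higher and 14 lower in gerbil. At 4-fold or more, 0 were higher and 2 lower, among them the adaptor gene Shc1, at 3.81 FPKM in gerbil and 30.9 in ICR. The kinase gene Mapk3 was at 80.4 FPKM in gerbil and 114 in ICR, the GTPase gene Hras at 63.8 in gerbil and 94.2 in ICR, and the transcription factor gene Stat3 at 95.2 in gerbil and 68.4 in ICR. The Stat3 difference of 0.47 was -0.04 under the trimmed mean scaling.

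Genes of receptor turnover and feedback had a median of 0.32 over 14 measured genes, -0.11 under the trimmed mean scaling, with 9 higher and 5 lower in gerbil; at 4-fold or more, 0 were higher and 2 lower. Dusp6, a phosphatase gene induced by ERK signalling, was 3.69-fold higher, at 108 FPKM in gerbil and 28.5 in ICR. Dusp1 was at 411 FPKM in gerbil and 205 in ICR, and Socs3, a cytokine signalling inhibitor gene, at 166 in gerbil and 81.9 in ICR. Errfi1, a feedback inhibitor gene of the EGF receptor, was at 1.61 FPKM in gerbil on a match of 2e-85 and 32.4 in ICR. Sh2b3 was listed at 0 in gerbil and was at 8.91 FPKM in ICR.

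Early response genes, which growth factors and many other stimuli induce, moved both ways: of 11 measured, at 4-fold or more 2 were higher in gerbil and 1 lower, with a median of -0.09. The AP-1 subunit gene Fosb was at 79.2 FPKM in gerbil and 6.03 in ICR. Fos was at 392 FPKM in gerbil and 73.5 in ICR, a log2 difference of 2.398 that was 1.88, under 4-fold, with the trimmed mean scaling. Junb was nearly level at 561 FPKM in gerbil and 599 in ICR. Ier3 was at 192 FPKM in gerbil and 627 in ICR, and Egr2 at 0.92 in gerbil and 9.55 in ICR.

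**Figure D5:**
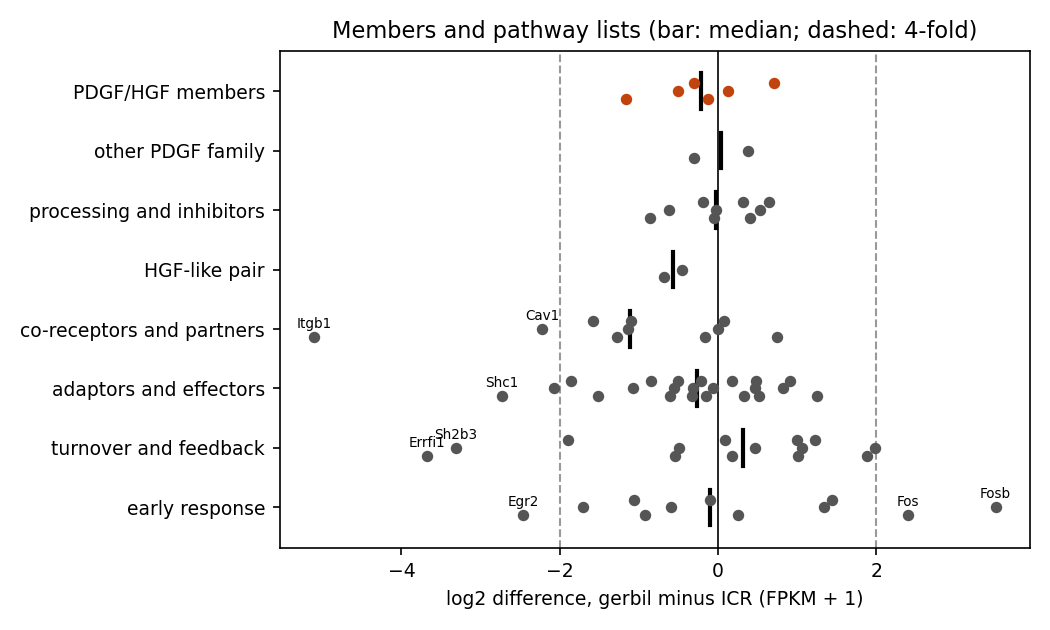
Log2 difference (gerbil minus ICR) of each measured gene in the PDGF and HGF set and in 7 pathway lists, 1 point per gene, with a bar at the median and dashed lines at 4-fold. The 6 ligand and receptor genes stay between -1.16 and 0.70, while Fosb and Fos lie past 4-fold on the gerbil side and Itgb1 is farthest on the ICR side.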

How the data were processed

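RNA from skin wounds, 3 days after wounding, was sequenced in 1 gerbil and 1 ICR library. The authors deposited FPKM for both, per the file headers. A score, the expectation value of the gerbil match, is also deposited per the file headers; the assembler, search program and transcript length used for gerbil are not stated in them. Tools listed, per the submitters' processing notes, are Cufflinks 2.2.1, RSEM 1.2.19, STAR 2.4.0b and CASAVA, with the build GRCm38.p2 and no roles. Depth is unknown.

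Groups came from the labels. A symbol with several rows was represented by the row with the highest mean. Sizes were read at 4-fold, without a test. The trimmed mean left out 30% of log ratios and 5% of mean levels at each end. Related genes were searched with blastn 2.17.0 (expectation value up to 1e-05) among longest coding sequences and pseudogene transcripts of GENCODE M21. The members, lists and marker genes were chosen with earlier results of these data known. Named were the 7 genes, Pdgfd, Pdgfrl, Mst1, Mst1r, the 3 most abundant and 2 most different genes of each other pathway list, and the 2 most abundant of each marker list; Kit, Csf1r, Krt14, Nrp1, Cspg4, Abcc9, Myh11, Itga2b, Gp1bb, Ccr2, genes sharing a gerbil value, and genes marked so in the text were chosen after their values were seen. An item that the rule takes in is not reported here. Likeness of pattern was not computed over 2 libraries. Python 3.11.15, numpy 2.4.6 and pandas 2.3.3 were used.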

Additional observations from a re-analysis of the deposited data

How the results depend on the processing

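With 1 library per species no library could be left out. No paired analysis was possible because each group had 1 sample. Over the alternatives that left any of the 6 genes, 0 passed 4-fold; with a 2-fold size rule Pdgfb, 1 gene, was past it, lower in gerbil. None of the 6 gerbil values stood on 1 row, so that restriction gave no value for them. Pathway genes past the size rule, 2 higher and 7 lower in gerbil as reported, were 4 higher and 8 lower with a pseudocount of 0.1. With a pseudocount of 5 they were 2 higher and 4 lower. Under the trimmed mean scaling they were 1 higher and 11 lower, and under the housekeeping scaling 2 higher and 9 lower. They were 10 higher and 17 lower at 2-fold, and 1 higher and 3 lower at 8-fold. Among the 24 whose gerbil value stood on 1 row, 2 were higher and 0 lower. The 53 measured marker genes, 7 higher and 6 lower in gerbil, were 3 higher and 9 lower with the trimmed mean scaling. With the housekeeping scaling they were 3 higher and 8 lower. They were 15 higher and 11 lower at 2-fold, and 3 higher and 5 lower at 8-fold. With the gerbil value on 1 row they were 2 higher and 0 lower, and with an expectation value of 0 they were 6 higher and 2 lower. All 20089 measured symbols, coding and non-coding, had 5199 higher and 1116 lower as deposited. The counts were 4443 and 1566 under the trimmed mean scaling, and 4781 and 1350 under the housekeeping scaling. At 2-fold they were 9488 and 2591, and at 8-fold 3842 and 505. Of 1743 symbols with the gerbil value on 1 row, 130 were higher and 36 lower. The protein-coding restriction and the sums without Itgam or Krt14 were chosen after seeing the data. The cause of these shifts was not tested, except that restricted sets hold fewer genes.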

Other observations

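Receptor tyrosine kinase genes related in sequence to the PDGF receptors, found by that search and named after their values were seen, were at 32.0 FPKM in gerbil and 15.3 in ICR for Fgfr1, 21.4 in gerbil and 19.1 in ICR for Fgfr3, and 8.59 in gerbil and 14.6 in ICR for Fgfr2, receptors of fibroblast growth factors. Flt4, the receptor gene of lymphatic endothelium, was at 5.19 FPKM in gerbil and 0.406 in ICR, and Ret, a neurotrophic factor receptor gene, at 7.37 in gerbil and 0.628 in ICR. Both were under 1 FPKM in ICR and entered the measured set only through their gerbil value. Across all measured symbols, 25.9% were higher in gerbil by 4-fold or more. Axl, related to Met in sequence and known for clearing dying cells, was nearly level at 51.7 FPKM in gerbil and 53.2 in ICR.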
